A study of Mus musculus with 4 samples.

Results

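The CXC chemokines are small secreted proteins, and one of them is made as a membrane-bound form, that direct the movement of leukocytes. They were read here as 10 listed genes (Cxcl1, Cxcl2, Cxcl3, Cxcl5, Cxcl9, Cxcl10, Cxcl12, Cxcl13, Cxcl14 and Cxcl16) of the 31053 genes counted in single cells of the mouse aortic arch with its branches. The genes were chosen by name, and all 10 were detected. Their levels were compared over 12260 cells that fell into 10 cell types by marker genes, of 14148 cells kept and 15599 barcodes in all.

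The cells came from 4 groups of male mice, 3 months old at the start, and each group was 1 pool of mice and 1 library. All mice carried a floxed Nfe2l2 allele, the gene of the transcription factor Nrf2. In the Nrf2flox/flox groups no Cre was present, and in the Nrf2Cdh5tKO groups a constitutive Cre under the Cdh5 promoter is meant to excise exon 5 in endothelial cells and also acts in part of the blood-forming lineage. The standard-diet groups, 4 mice in each pool, had a tail-vein injection of saline. The high-fat-diet groups, 3 mice in each pool, had a tail-vein injection other than saline and then 21 weeks of high-fat diet, so the injection and the diet cannot be told apart. The tissue was dissociated with enzymes, living cells were sorted as DAPI-negative, and the libraries were made with a droplet 3′ kit. Below, values for the 4 libraries are always given in the order flox standard diet, tKO standard diet, flox high-fat diet and tKO high-fat diet, where flox and tKO stand for the genotype on the label.

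The libraries differed in size, from 1160 to 8512 barcodes and from 12276546 to 98754487 unique molecular identifiers (UMIs, counts of single captured transcripts), and the median kept cell had 9200.5 to 14152.5 UMIs. A level is the number of UMIs of a gene per 1000000 UMIs of the same cells (counts per 1000000, CPM), with an exact 95% Poisson interval. A share is the percentage of cells with at least 1 UMI. These intervals, and those of ratios and shares, cover counting error only, since there was no second library of any group, and therefore no test between groups was made and no p-value is given. Of barcode sequences, 22 occurred among the kept cells of more than 1 library. The targeted gene did not check the labels: Nfe2l2 was at 185, 372, 172 and 349 CPM in endothelial cells (67, 99, 28 and 55 UMIs) and at 445, 482, 451 and 448 in macrophages. In endothelial cells it was thus higher, not lower, under the tKO label, and which stretch of the gene the counted reads came from was not analysed here. The tKO libraries are therefore named by their label throughout.

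Cell types were gated on the mean of fixed marker genes. Fibroblasts made up 7507 cells, smooth muscle cells 2130, macrophages 1232, T cells 638, B cells 201, endothelial cells 146, neutrophils 128, monocytes 122, dendritic cells 84 and thymocytes 72. The endothelial gate held 62, 41, 23 and 20 cells. Cdh5, the endothelial adhesion gene whose promoter drives the Cre, was found in 95% to 100% of them. It is itself a marker of this gate, so this share is no independent check. The monocyte and dendritic cell gates were the least uniform, because single markers of theirs were present in as few as 19.7% and 5.95% of the gated cells. Fibroblasts and macrophages were further split by marker lists named for their leading genes, such as Pi16 fibroblasts (Pi16, Dpp4), Comp Fmod fibroblasts (Comp, Fmod, Chad), Penk Epyc fibroblasts (Penk, Epyc, Fgf10), Lyve1 macrophages (Lyve1, Folr2) and intima-type macrophages (Acp5, Trem2, Cd72).

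As background, chemokines bind heptahelical receptors on leukocytes. Those with a glutamate-leucine-arginine motif before the first cysteines (Cxcl1, Cxcl2, Cxcl3 and Cxcl5) act on Cxcr2 and recruit neutrophils, and they are classical early targets of NF-kB. Cxcl9 and Cxcl10 are induced by interferons and attract activated T cells through Cxcr3. Cxcl12 acts on Cxcr4, is cleared by the scavenger receptor Ackr3, and is made by resting stroma and endothelium; Cxcl13 attracts B cells through Cxcr5, Cxcl14 is a constitutive chemokine of epithelia and stroma, and Cxcl16 is a transmembrane ligand of Cxcr6 that also binds oxidized lipoprotein.

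Positions are from the annotation of the files' build. Of the genes, 7 are on mouse chromosome 5 (build GRCm38). The neutrophil ligands lie in a cluster on the forward strand, with Cxcl5 at 90759360 to 90761624, Cxcl3 at 90786103 to 90789600, Cxcl1 at 90891241 to 90893115 and Cxcl2 at 90903871 to 90905938. Cxcl9 (92321347 to 92328079) and Cxcl10 (92346638 to 92348889) are neighbours on the reverse strand, and Cxcl13 is at 95956951 to 95961068. Cxcl12 is on chromosome 6 (117168535 to 117181367), Cxcl16 on chromosome 11 (70453983 to 70459984) and Cxcl14 on chromosome 13 (56288643 to 56296551). Cxcl10 and Cxcl16 overlap Art3 and Zmynd15 on the opposite strand.

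The stretches before the RefSeq start are shown for clustered neutrophil ligands and for Cxcl10, because inducible elements can be read in them, and for Cxcl12 as a gene that differed from them in its pattern over cells. They are from RefSeq, build GRCm38.p6, are written 5′ to 3′ on the strand of the gene, and hold capitals where a script found GGGANNNNCC (a kappa B motif) or GAAANNGAAA (the core of an interferon-stimulated element) on either strand. Overlapping matches were merged.
Cxcl1, chr5:90891095-90891244, forward strand: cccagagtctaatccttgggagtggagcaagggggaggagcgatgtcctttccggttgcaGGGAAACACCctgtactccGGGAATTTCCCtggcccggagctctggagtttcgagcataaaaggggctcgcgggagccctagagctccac
Cxcl2, chr5:90903749-90903898, forward strand: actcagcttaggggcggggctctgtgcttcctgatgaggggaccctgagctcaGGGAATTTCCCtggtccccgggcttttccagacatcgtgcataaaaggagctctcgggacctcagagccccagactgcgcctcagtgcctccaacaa
Cxcl3, chr5:90785951-90786100, forward strand: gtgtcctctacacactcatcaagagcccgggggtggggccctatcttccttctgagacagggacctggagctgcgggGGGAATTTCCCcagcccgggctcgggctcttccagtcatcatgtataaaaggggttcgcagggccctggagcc
Cxcl10, chr5:92348890-92349109, reverse strand: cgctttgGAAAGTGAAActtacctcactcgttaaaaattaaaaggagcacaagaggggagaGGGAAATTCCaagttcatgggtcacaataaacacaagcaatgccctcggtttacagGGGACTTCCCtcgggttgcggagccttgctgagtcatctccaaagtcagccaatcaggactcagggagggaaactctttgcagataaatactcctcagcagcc
Cxcl12, chr6:117168385-117168534, forward strand: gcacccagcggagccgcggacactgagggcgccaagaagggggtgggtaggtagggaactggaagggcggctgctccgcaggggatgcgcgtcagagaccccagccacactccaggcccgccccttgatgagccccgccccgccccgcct

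Cxcl1, Cxcl2 and Cxcl3 share the run GGGAATTTCCC, which starts 71, 97 and 73 bases before their RefSeq starts, and Cxcl1 holds a further match at 90 bases. For these 3 genes and for Cxcl13 the RefSeq start is not the same base as the gene start of the annotation given above, and all distances are from the RefSeq start. In Cxcl10 the kappa B letters start at 159 and 103 bases and the interferon letters at 213 bases before the start. Of the 8 members with a promoter in the table, 6 held the kappa B letters within 250 bases (also Cxcl9 at 130 and Cxcl13 at 63 bases), against 17.6% of 32851 promoters. The interferon letters were found in 2 (Cxcl10 and Cxcl14, the latter at 172 bases), against 2.98% of promoters. Cxcl12 held neither in this window. Cxcl5 and Cxcl16 were the members without a matched entry. A match describes the letters and is no evidence of binding.

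The 10 genes differed in the cell type that led. By mean level over the 4 libraries, Cxcl1, Cxcl5 and Cxcl14 were highest in fibroblasts, Cxcl9 and Cxcl12 in endothelial cells, Cxcl2, Cxcl10, Cxcl13 and Cxcl16 in macrophages, and Cxcl3 in monocytes. The places of Cxcl13 and Cxcl3 rested on single cells. Without the highest cell of each library, Cxcl13 in macrophages was at a mean of 12.2 in place of 64.7. Fibroblasts were at 20.2 with all cells. Cxcl3 in monocytes was at 1.37 in place of 89.3, and Cxcl10 in macrophages at 52.7 in place of 89.4. With all cells, the mean of Cxcl10 was 70.1 in monocytes and 48.4 in dendritic cells. In monocytes 1 cell held 23 of 30, 19 of 27, 3 of 5 and 7 of 9 Cxcl10 UMIs. Whether macrophages still led for Cxcl10 with the highest cell also left out of monocytes was not tested. With doublets removed the macrophage mean of Cxcl10 was 59.8. Fibroblasts, the most numerous cells, held most of the UMIs of 8 members: 90.2% for Cxcl1, 98% for Cxcl5, 77.7% for Cxcl9, 67.7% for Cxcl10, 94.6% for Cxcl12, 86.0% for Cxcl13, 96.0% for Cxcl14 and 56.4% for Cxcl16. For Cxcl9, 1 fibroblast held 50.3% of the UMIs of all gated cells. Macrophages held 77.3% of Cxcl2 and 51.0% of Cxcl3.

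**Figure D1:**
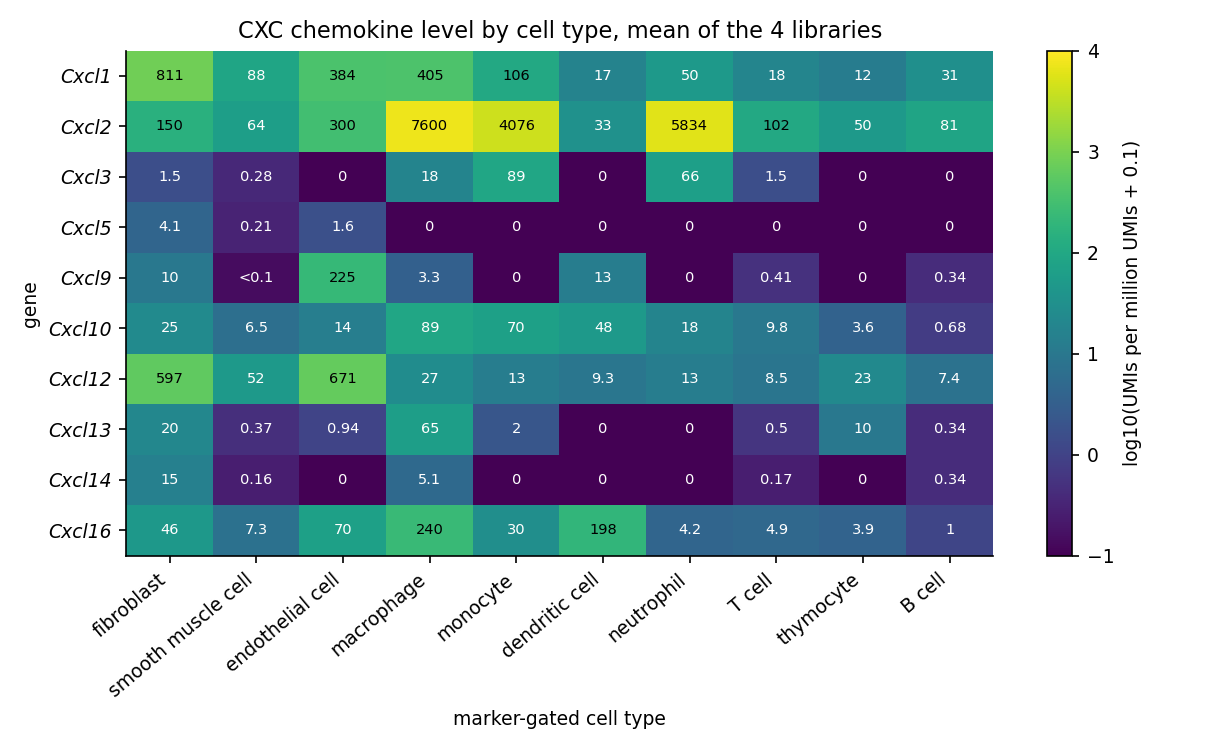
Level of each CXC chemokine (rows) in each marker-gated cell type (columns) as the mean of the 4 library levels in CPM; the number is printed in each cell and the colour is log10 of the level plus 0.1. Cxcl2 reaches 7600 in macrophages and 5834 in neutrophils, Cxcl1 reaches 811 in fibroblasts, and Cxcl12 is 671 in endothelial cells and 597 in fibroblasts.

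Among the neutrophil ligands, Cxcl1 had the highest level in fibroblasts. Its level in fibroblasts was 1009, 1125, 467 and 642 CPM (54431, 29881, 3206 and 8760 UMIs), and 74.5%, 77.4%, 64.5% and 68.9% of fibroblasts had a UMI. Both high-fat libraries were lower than both standard-diet libraries. T cells, which are not known as a source of Cxcl1, had a UMI in 26.0%, 14.7%, 6.80% and 11.3% of cells, at a median of 7917, 7642, 7339 and 6443 UMIs per cell against 12482, 16918.5, 14368 and 11650 in fibroblasts. With every cell thinned to 1000 UMIs, the share was 37.7%, 44.4%, 25.6% and 31.9% in fibroblasts and 2.03%, 1.69%, 0% and 1.61% in T cells. At least 5 Cxcl1 UMIs were found in 45.0%, 56.8%, 34.8% and 36.1% of fibroblasts and in 1 T cell in all.

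In the other cell types the mean level of Cxcl1 was lower, and the level was lower in each library except in endothelial cells of the flox high-fat library. Macrophages were at 657, 335, 256 and 373, below the fibroblasts of the same library in each of the 4. The endothelial level of 362, 71.3, 638 and 464 rested on few cells, since 1 cell held 64.1% of the UMIs in the flox standard-diet library and 1 cell 70.2% in the flox high-fat library. In each library the endothelial gate also had fibroblast RNA: collagen and decorin genes were at 1590, 713, 1270 and 2521 in it, against 19510, 19294, 19453 and 18053 in fibroblasts, and the part of that RNA in the Cxcl1 level was not tested. The mean levels of macrophages (405) and endothelial cells (384) overlapped over libraries and were not separated. Smooth muscle cells were at 110, 85.1, 60.4 and 96.3. For every 1000 UMIs of the collagen and decorin genes they had 58.1, 39.5, 42.9 and 58.7 of Cxcl1, and fibroblasts 51.7, 58.3, 24.0 and 35.5. The smooth muscle ratio was the lower one only in the tKO standard-diet library.

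Among fibroblasts Cxcl1 was broad. Pi16 fibroblasts, adventitial cells of a progenitor type, were at 963, 985, 371 and 628, and the fibroblasts outside any named subset at 1049, 1235, 544 and 662. Comp Fmod fibroblasts, with genes of cartilage-like matrix, were at 697, 568, 450 and 532, the lowest of these 3 subsets in every library except the flox high-fat one. Penk Epyc fibroblasts were at 1565, 671, 745 and 808. A large gap between the standard-diet libraries was seen in Cilp Meox1 fibroblasts, a subset with matrix and activation genes, which had 432 in 118 flox cells and 1601 in 90 tKO cells (log2 1.89, interval 1.77 to 2.02). The same subset held 0 cells in the flox high-fat library and 4 in the tKO high-fat library.

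Cxcl2 was highest in macrophages, neutrophils and monocytes, while dendritic cells, at a mean of 33.3, were the lowest of the 10 types. Its macrophage level was 8554, 8063, 5406 and 8377, and 93.6%, 91.5%, 87.4% and 93.3% of macrophages had a UMI. Neutrophils had 8691, 4178, 2228 and 8240 (in 87, 16, 18 and 7 cells) and monocytes 4589, 4112, 2961 and 4641. The ranges of macrophages and neutrophils overlapped, and monocytes were below macrophages in each library. The flox high-fat library had the lowest level in all 3 types. Its cell with most Cxcl2, 937 UMIs or 10.2% of the Cxcl2 of that library, was unassigned and is in none of these levels. Within macrophages, Lyve1 macrophages, perivascular resident cells, were at 8114, 7135, 5658 and 6680, and intima-type macrophages at 10229, 10377, 3505 and 8153. Cavity-like macrophages were at 6649, 8340, 3741 and 10012 (in 64, 6, 8 and 14 cells), and the macrophages outside any named subset at 10971, 9802, 9674 and 13309 (in 73, 44, 9 and 38 cells). The last were the highest of these subsets in each library except the tKO standard-diet one.

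Outside macrophages, neutrophils and monocytes Cxcl2 was far lower but not at 0. Endothelial cells came next, at a mean of 300 and from 85.9 to 826 over libraries, from 62, 31, 14 and 130 UMIs. In the tKO high-fat library 30.0% of the 20 endothelial cells had at least 5 Cxcl2 UMIs. Fibroblasts were at 146, 126, 64.1 and 264, with a UMI in 33.7%, 42.2%, 26.0% and 39.8% of cells, and T cells at 189, 77.4, 49.2 and 93.4, with a UMI in 29.4%, 39.5%, 25.2% and 37.1%. T cells are not a known source of Cxcl2, and the fibroblast shares, from deeper cells, stood only slightly above theirs. The C1q genes, which define macrophages, were at 100, 109, 102 and 188 in fibroblasts against 14181, 15337, 11974 and 15597 in macrophages. For each C1q UMI there were 0.603, 0.526, 0.451 and 0.537 Cxcl2 UMIs in macrophages and 1.46, 1.16, 0.629 and 1.40 in fibroblasts. In T cells the ratio was 3.27, 0.614, 0.580 and 0.533, near that of macrophages except in the flox standard-diet library. There 572 Cxcl2 UMIs stood against 175 C1q UMIs, and 1 T cell held 34.8% of the Cxcl2. With the Cxcl2 of that cell left out, the ratio would still be above that of macrophages. Fibroblasts with at least 5 Cxcl2 UMIs were 5.69%, 6.04%, 2.15% and 7.36% of the cells, and T cells 3.04%, 2.26%, 0.971% and 1.61%. The part of RNA released from myeloid cells in the fibroblast level was not tested.

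Cxcl1 and Cxcl2 occurred in the same cells only slightly more often than the share of each gene in all cells of the type. Of 600 macrophages with Cxcl1, 97.3% also had Cxcl2, which 92.6% of all macrophages had. Of 1141 macrophages with Cxcl2, 51.2% had Cxcl1, against 48.7% of all macrophages. Of 5528 fibroblasts with Cxcl1, 39.3% had Cxcl2, against 35.9% of all fibroblasts. Of 2698 fibroblasts with Cxcl2, 80.6% had Cxcl1, against 73.6% of all fibroblasts.

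Cxcl3 and Cxcl5 were rare. Cxcl3 had 727 UMIs in kept cells. In macrophages it was at 31.7, 7.96, 8.31 and 24.9 (215, 20, 7 and 54 UMIs), with a UMI in 9.33%, 2.71%, 3.45% and 3.35% of cells. In the flox high-fat library 1 unassigned cell, in no gated type, held 91 Cxcl3 UMIs, 59.5% of the library's, and 867 of Cxcl2. Its first place in monocytes came from the tKO high-fat library alone, where 48 UMIs in 1 of 18 cells gave 319, against 23.7, 0 and 15.0 in the others. Fibroblasts had 0.222, 0, 0 and 5.86, and 78 of the 80 UMIs of the last library were in 1 cell that also had 465 Cxcl2 UMIs.

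Cxcl5 was a gene of fibroblasts, at 3.10, 7.95, 2.33 and 3.15 (167, 211, 16 and 43 UMIs). Not 1 UMI was found in macrophages, monocytes, dendritic cells, neutrophils, T cells, B cells or thymocytes. In the 611 flox standard-diet macrophages a count of 0 allowed up to 0.545 CPM as the upper end of the exact interval. In smaller groups the upper end was higher, at 5.46, 21.5, 13.9 and 24.5 in monocytes and 8.23, 24.8, 14.4 and 70.7 in neutrophils. In these types, and in dendritic cells, B cells and thymocytes, it lay above the fibroblast level of each library. A count of 0 in them cannot show a level below that of fibroblasts. The tKO standard-diet library was the highest, and in the fibroblasts outside the named subsets it had 12.6, against 3.36, 3.14 and 3.37. Of 156 fibroblasts with Cxcl5, 140 (89.7%) also had Cxcl1, which 73.6% of all fibroblasts had.

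Cxcl9 had its highest level in endothelial cells at the standard diet, although fibroblasts held more of its UMIs there (367 and 844 against 132 and 123). The endothelial level was 365, 462, 49.1 and 25.4 CPM, from 132, 123, 8 and 4 UMIs, with intervals of 305 to 433, 384 to 551, 21.2 to 96.7 and 6.92 to 65.0. A UMI was found in 40.3%, 39.0%, 21.7% and 10.0% of the cells, against 1.01%, 0%, 0% and 0% of T cells, and the intervals of these shares overlapped (28.1% to 53.6% against 7.46% to 43.7% under the flox label). Both standard-diet libraries were thus above both high-fat libraries in level. The highest cell held 25.0% and 14.6% of the UMIs at the standard diet, and without it the levels were 279, 406, 24.9 and 13. With 23 and 20 endothelial cells in the high-fat libraries, the comparison is of few cells in 1 pool each and was left without a ratio.

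In fibroblasts Cxcl9 was a matter of single cells. The level was 6.80, 31.8, 0.437 and 1.03, from 367, 844, 3 and 14 UMIs in 1.41%, 1.08%, 0.645% and 0.887% of the cells. One Penk Epyc fibroblast of the tKO standard-diet library held 796 of the 844 UMIs. This cell had 18197 UMIs in all, was not called a doublet, and also had 306 Cxcl10 UMIs and 203 UMIs of 10 interferon-response genes. Without the highest cell of each library the fibroblast levels were 4.19, 1.81, 0.293 and 0.660. Of 91 fibroblasts with Cxcl9, 38 (41.8%) also had Cxcl10, which 7.73% of all fibroblasts had. Endothelial cells did not show this: of 48 with Cxcl9, 2 (4.17%) had Cxcl10, against 4.11% of all endothelial cells.

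Cxcl10 was found in more cell types. In macrophages it was at 46.4, 145, 7.12 and 159 (314, 364, 6 and 345 UMIs), with a UMI in 9.17%, 17.3%, 4.60% and 7.95% of the cells. The last value came from 1 Lyve1 macrophage with 266 of the 345 UMIs, a cell called as a doublet with 1044 interferon-response UMIs from 14 genes, and without the highest cell of each library the levels were 36.0, 133, 4.81 and 36.7. The tKO standard-diet library then stood highest, with 30 UMIs in its highest cell. Its subsets were at 89.9 in Lyve1 macrophages and 368 in intima-type macrophages, against 17.7 and 158 in the flox standard-diet library. Monocytes had 44.4, 157, 18.8 and 59.8, and dendritic cells 88.4, 105, 0 and 0.

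The interferon-response genes were higher with Cxcl10 in macrophages of the tKO standard-diet library, but not in every library. The summed level of that list of 14 genes was 265, 724, 515 and 802, so the flox high-fat library, lowest in Cxcl10, was not lowest in the list. In the tKO high-fat library the doublet-called cell with most Cxcl10 held 60.1% of the list's UMIs. Without the cell of each library that held most of the list, the level was 247, 653, 413 and 322. Between the standard-diet libraries, 11 of the 13 genes with enough UMIs were more than 2-fold higher under the tKO label, with a median log2 of 1.53, where 9.64% of all genes passed 2-fold in either direction and their median was 0.23. Among them, Rsad2, an antiviral enzyme, was at 9.30 under flox and 64.9 under tKO (log2 2.80), and Ifit2, an inhibitor of viral translation, at 5.91 and 34.2 (log2 2.53). Also past 2-fold with at least 100 UMIs were Iigp1 (2.46), Oasl1 (1.93), Isg15 (1.53), Ifih1 (1.42), Ifit3 (1.12) and Irf7 (1.0). At the high-fat diet 6 of 14 genes were higher, among them Cmpk2 (3.04), Oasl1 (2.56), Ifit2 (2.28), Rsad2 (1.49) and Ifit3 (1.26), and 1, Iigp1, lower (92.6 under flox and 37.0 under tKO, log2 -1.32), with a median of 0.74, where 6.27% of all genes passed and their median was -0.06. Without those cells, 9 of 13 genes were more than 2-fold higher under tKO at the standard diet (median log2 1.47) and none was lower, while at the high-fat diet 0 of 11 were higher and 2 lower (median -0.36). The share of all genes without those cells is not given here.

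In fibroblasts Cxcl10 was lower in the high-fat libraries, at 35.5, 40.8, 13.3 and 10.4, with a UMI in 9.44%, 5.97%, 4.95% and 4.70% of cells. The interferon list was not lower there, with a summed level of 375, 397, 369 and 386 and a median log2 by diet of 0.23 under flox and 0.02 under tKO. Of its genes, 0 of 14 under flox and 0 of 13 under tKO passed 2-fold, where 8.36% and 6.26% of all genes did. Counts of 0 are near those shares for a list of this size.

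Cxcl12, the ligand of Cxcr4, was highest in endothelial cells and fibroblasts. The fibroblast level was 399, 310, 886 and 793 (21548, 8218, 6082 and 10833 UMIs), with a UMI in 70.3%, 73.8%, 88.6% and 83.9% of cells, and both high-fat libraries were above both standard-diet libraries. With cells thinned to 1000 UMIs the share was 24.9%, 21.2%, 41.9% and 41.1%, in the same order. In endothelial cells it was 882, 469, 571 and 762, without that order. The endothelial mean of 671 and the fibroblast mean of 597 overlapped over libraries. Smooth muscle cells had 46.0, 46.6, 61.7 and 52.5, and macrophages 28.1, 16.3, 33.2 and 29.1. T cells had 7.94, 6.94, 5.79 and 13.3, with a UMI in 7.43%, 7.34%, 5.83% and 9.68% of cells, far below the fibroblasts.

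**Figure D2:**
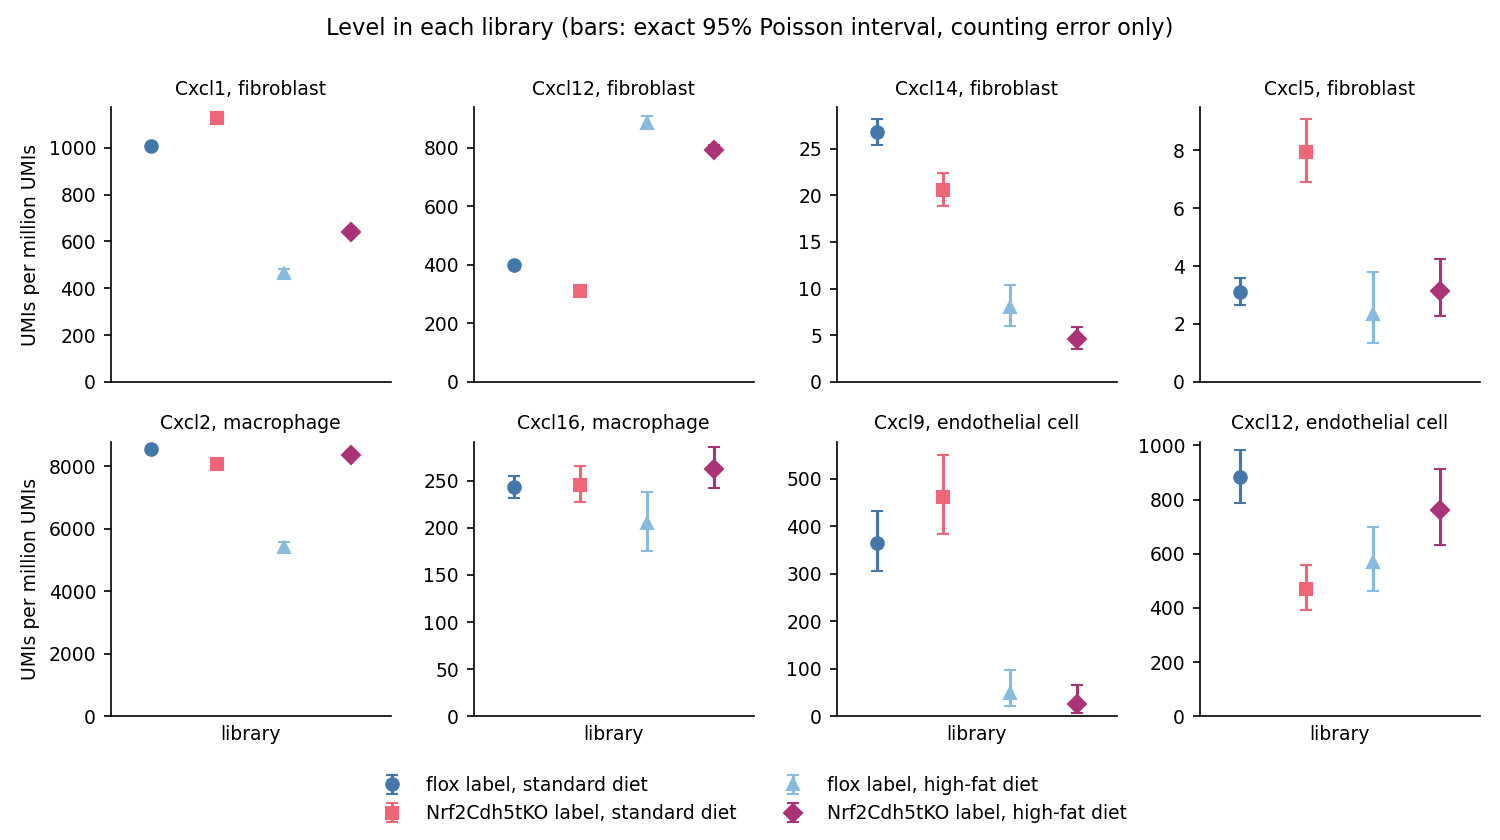
Level of 8 pairs of chemokine and cell type in each library, in CPM, with exact 95% Poisson intervals as bars; colours and markers stand for the 4 libraries. Cxcl1 in fibroblasts is lower and Cxcl12 in fibroblasts higher in both high-fat libraries, while Cxcl16 in macrophages stays between 205 and 263.

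The higher Cxcl12 level of the high-fat libraries was found in each fibroblast subset large enough to compare. Pi16 fibroblasts had 195, 173, 415 and 358, Comp Fmod fibroblasts 752, 439, 1314 and 1433, and the fibroblasts outside named subsets 469, 394, 1136 and 860. Under the flox label the log2 ratio of high-fat to standard diet was 1.09 (1.0 to 1.19), 0.81 (0.69 to 0.92) and 1.28 (1.22 to 1.33) in these subsets, and under the tKO label 1.05 (0.95 to 1.15), 1.71 (1.55 to 1.86) and 1.13 (1.07 to 1.18). Penk Epyc fibroblasts had the highest level, 833, 1171, 3049 and 1847, but only 8 cells in the flox high-fat library. Cilp Meox1 fibroblasts were lowest at the standard diet among these subsets, at 108 and 73.1.

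The scavenger receptor Ackr3 was high where its ligand was low in some of these subsets. Pi16 fibroblasts, low in Cxcl12, had 1081, 963, 1063 and 945 Ackr3 CPM. Comp Fmod fibroblasts had 295, 450, 421 and 239 and Penk Epyc fibroblasts 201, 134, 121 and 175. In each library Pi16 fibroblasts were thus the highest of these 3 subsets for Ackr3 and the lowest for Cxcl12. Cilp Meox1 fibroblasts did not follow this order, with low Cxcl12 and an Ackr3 level of 213 and 366 at the standard diet. By diet, Ackr3 in Pi16 fibroblasts differed by -0.02 (-0.08 to 0.03) and -0.03 (-0.08 to 0.03) on the log2 scale.

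**Figure D3:**
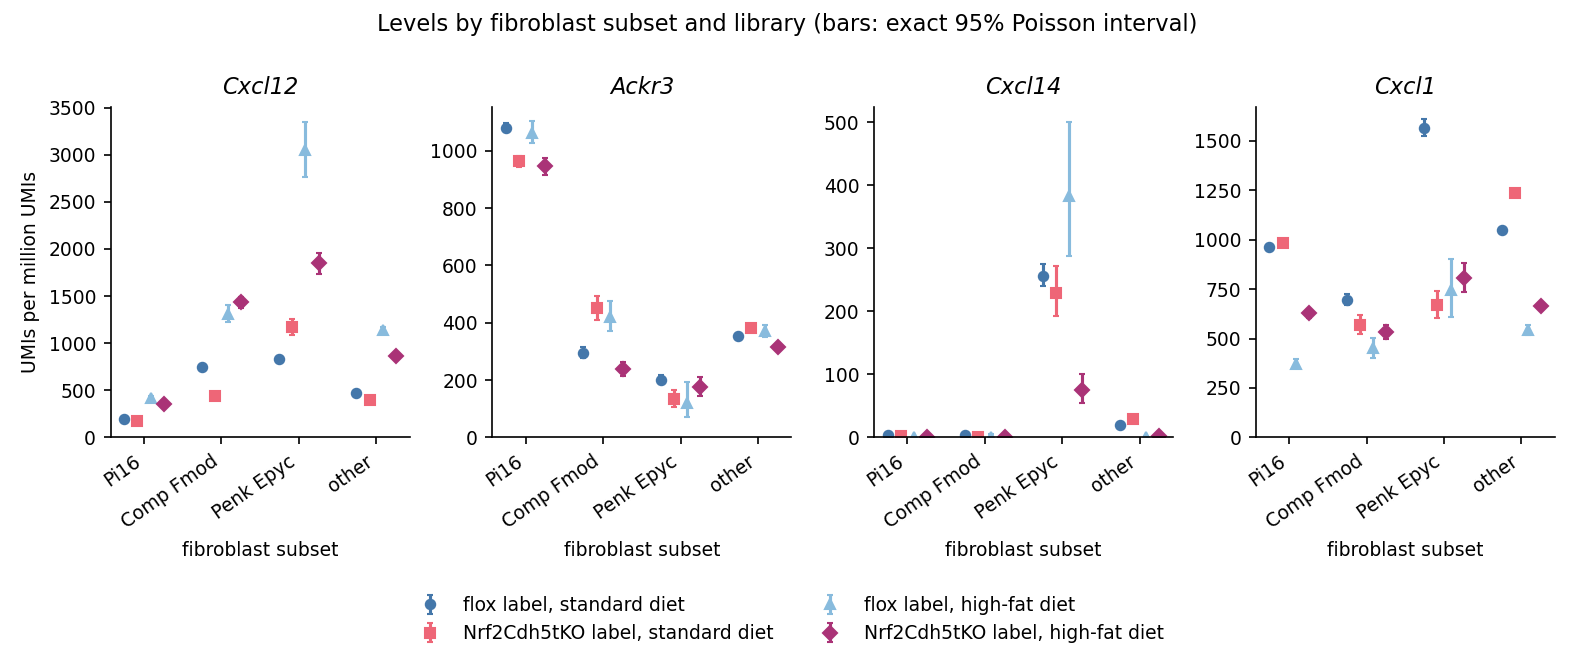
Levels of Cxcl12, Ackr3, Cxcl14 and Cxcl1 in 4 fibroblast subsets (x axis) and in each library (colour and marker), in CPM with exact 95% Poisson intervals. Cxcl12 is lowest and Ackr3 highest in Pi16 fibroblasts, and Cxcl14 is highest in Penk Epyc fibroblasts, which number 8 cells in the flox high-fat library.

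Cxcl13, the B-cell attractant, was rare in every type. Fibroblasts had 41.4, 14.9, 4.37 and 20.1, from 2.63%, 2.80%, 1.94% and 2.31% of cells, and 50% of the UMIs were in 6, 3, 2 and 2 cells. The share of cells therefore varied far less than the level. Penk Epyc fibroblasts had 195, 37.7, 92.2 and 153, and Pi16 fibroblasts 52.8, 14.6, 4.5 and 34.6. Macrophages had 15.4, 42.2, 152 and 49.4, but all 128 UMIs of the flox high-fat library were in 1 Lyve1 macrophage, and 89 of the 107 UMIs of the tKO high-fat library were in 1 macrophage.

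Among the fibroblast subsets Cxcl14 had its highest level in Penk Epyc fibroblasts. It was at 257, 229, 383 and 75.4 in them, against 3.44, 2.29, 0 and 0 in Pi16 fibroblasts. Fibroblasts outside the named subsets had 19.4, 28.6, 0.314 and 2.78. Most Penk Epyc cells lacked it, since 16.5%, 17.6%, 25.0% and 2.33% had a UMI. They held 845, 134, 54 and 44 UMIs, and the fibroblasts outside the named subsets 526, 381, 1 and 19. Over all fibroblasts it was at 26.8, 20.6, 8.01 and 4.61, in 2.63%, 2.54%, 0.645% and 0.355% of cells. The high-fat values came almost from single cells: 52 of 55 and 44 of 63 UMIs were each in 1 Penk Epyc cell, and without the highest cell the fibroblast levels were 24.9, 18.8, 0.438 and 1.39. The share of Cxcl14 cells and the level thus stood lower in both high-fat libraries. Penk Epyc fibroblasts made up 6.01%, 2.16%, 1.72% and 3.82% of the fibroblasts, and the part of these shares in the Cxcl14 level was not tested. A smaller source was found in intima-type macrophages, at 31.7, 46.3, 0 and 22.1 (34, 16, 0 and 10 UMIs), with a UMI in 19.8%, 25.8%, 0% and 11.6% of 96, 31, 12 and 43 cells.

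Cxcl16 varied least between libraries in its leading cell type. Macrophages had 243, 246, 205 and 263, with a UMI in 72.3%, 64.4%, 44.8% and 66.5% of cells. Dendritic cells had 193, 236, 254 and 110, which overlapped, endothelial cells 49.8, 56.3, 73.6 and 102, and fibroblasts 43.7, 59.0, 35.1 and 44.5. T cells had 6.95, 2.98, 3.86 and 5.72, with a UMI in 4.39%, 3.39%, 3.88% and 4.84% of cells, so the fibroblast shares of 36.7%, 50.7%, 35.1% and 35.1% stood above this background. Within macrophages the subsets differed more than the libraries. Intima-type macrophages, which carry foam-cell genes such as Trem2 and Acp5, had 585, 538, 572 and 621, Lyve1 macrophages 199, 182, 122 and 170, and cavity-like macrophages, with genes of serous-cavity cells, 33.4, 0, 5.71 and 51.2. The intima-type level was above the Lyve1 level in each of the 4 libraries.

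Receptors were read to place the ligands. Cxcr2, the receptor of the neutrophil ligands, was at 873, 578, 261 and 652 in neutrophils, which held 87.0% of its UMIs. Cxcr1 had 14 UMIs in neutrophils, all in the flox standard-diet library. Cxcr3, the receptor of Cxcl9 and Cxcl10, was low, at 15.9, 10.9, 21.2 and 22.9 in T cells and 15.1, 25.6, 44.5 and 21 in dendritic cells. Cxcr4 was highest in monocytes (308, 268, 323 and 232) and neutrophils (433, 181, 203 and 192), lower in macrophages (142, 74.4, 109 and 133), and at 3.15, 1.21, 2.18 and 2.93 in the fibroblasts that held most UMIs of its ligand. Its mean level was 150 in B cells, 115 in macrophages, 99.5 in thymocytes, 70.7 in T cells and 60.3 in dendritic cells. Cxcr5 was a B-cell gene (127, 157, 140 and 163), and Cxcr6, the receptor of Cxcl16, a T-cell gene (230, 83.3, 106 and 164). The atypical receptor Ackr3 was at 576, 598, 662 and 515 in fibroblasts and 147, 191, 147 and 114 in endothelial cells. Ackr1, another scavenger, was at 9.71, 7.57, 15.6 and 9.08 in fibroblasts, mostly in Pi16 fibroblasts (24.4, 17, 34.6 and 24.3).

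Of the other CXC ligands, only Pf4, platelet factor 4, was high. It was at 3821, 2645, 2071 and 2896 in macrophages, which held 88.1% of its UMIs, and its mean level was 3804 in Lyve1 and 1289 in intima-type macrophages. Ppbp had 48 UMIs in macrophages and Cxcl15 38 UMIs in fibroblasts.

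For the diet and genotype comparisons, a ratio was taken for genes with at least 30 UMIs over both libraries, and a gene was counted when it passed 2-fold in either direction. The 4 comparisons in a cell type use the same 4 libraries and are not independent. In fibroblasts at the high-fat against the standard diet, 7 of 9 members passed 2-fold under the flox label, where 8.36% of 13761 genes did, and 7 of 10 under the tKO label, where 6.26% of genes did.

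Cxcl12 was higher in both, by log2 1.15 (1.11 to 1.19) under flox and 1.36 (1.32 to 1.40) under tKO. Cxcl10 was lower in both, by -1.42 (-1.74 to -1.12) and -1.97 (-2.24 to -1.72), as were Cxcl14, by -1.74 and -2.16, and Cxcl9, by -3.96 and -4.95, where the high-fat libraries had 3 and 14 UMIs. Without the highest cell of each library the ratios of Cxcl9 were -3.85 and -1.46, since 1 cell held 796 of the 844 UMIs of the tKO standard-diet library, and those of Cxcl14 were -5.83 and -3.76. Cxcl1 was lower by -1.11 (-1.16 to -1.06) under flox and by -0.81 (-0.85 to -0.78) under tKO, so it passed 2-fold only under flox. Cxcl16, at -0.32 and -0.41, passed it under neither label. Cxcl2 had opposite signs, -1.19 (-1.33 to -1.05) and 1.07 (1.0 to 1.14), as did Cxcl13, -3.24 and 0.44. Cxcl5 had -0.41 (-1.25 to 0.33) under flox and -1.34 (-1.84 to -0.86) under tKO. Cxcl3 could be taken only under tKO, with 80 UMIs against 0, nearly all in the 1 cell named above.

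**Figure D4:**
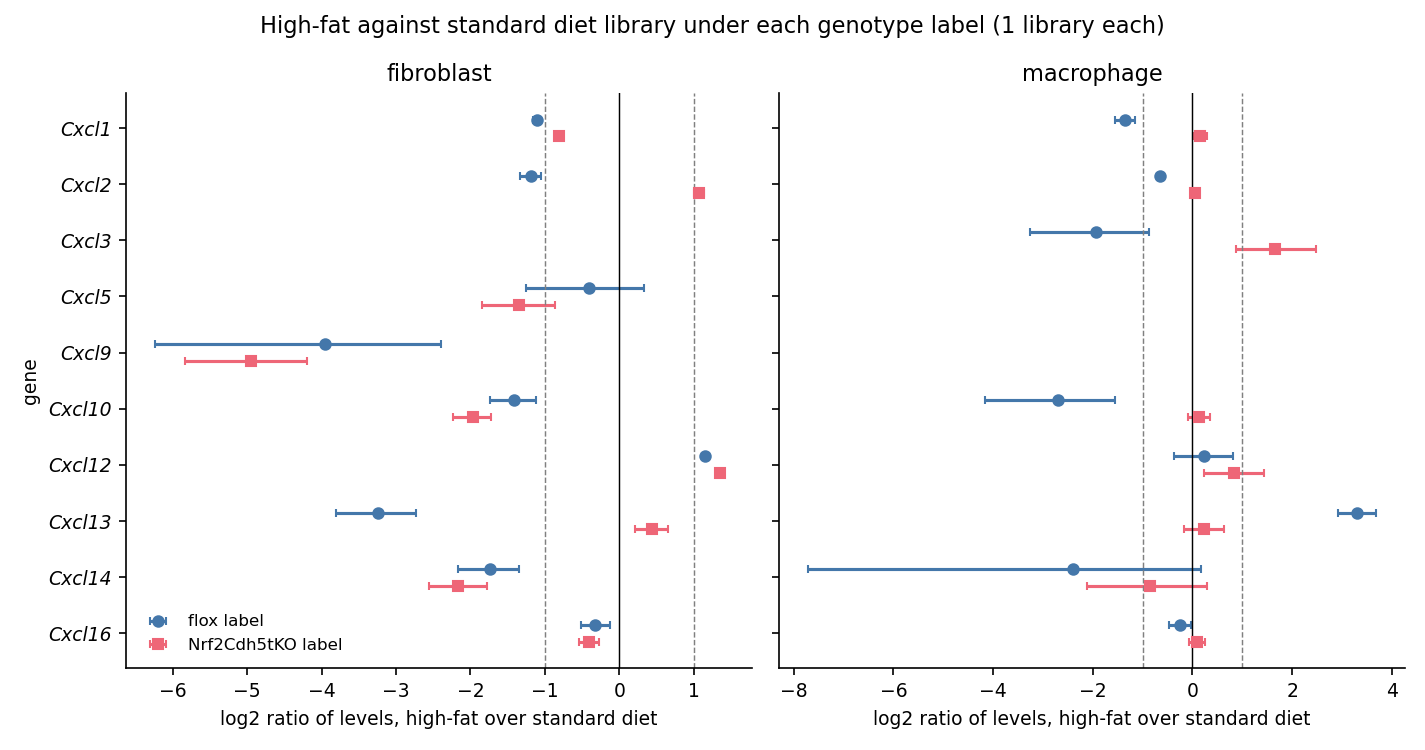
Log2 ratio of the high-fat over the standard-diet level for each member (y axis) in fibroblasts and macrophages, with 95% intervals from the UMIs; circles are the flox and squares the tKO label, and dashed lines mark 2-fold. In fibroblasts Cxcl12 lies above 1 and Cxcl9, Cxcl10 and Cxcl14 below -1 under both labels; a gene with a count of 0 in one library has no point.

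Between the genotype labels fewer members passed in fibroblasts. At the standard diet 3 of 9 did, where 6.11% of genes did: Cxcl5 (1.36, interval 1.06 to 1.66) and Cxcl9 (2.22) were higher under tKO and Cxcl13 lower (-1.48). The Cxcl9 ratio turned to -1.21 without the highest cell of each library. At the high-fat diet 3 of 9 passed, where 2.38% of genes did, and all were higher under tKO: Cxcl2 (2.04, interval 1.90 to 2.19), Cxcl13 (2.20, interval 1.66 to 2.80) and Cxcl3. Macrophage C1q RNA in the fibroblast gate was also higher in that library, 188 against 102 CPM, and its part in the Cxcl2 difference was not tested. Cxcl1 and Cxcl12 differed between the labels by 0.16 and -0.37 at the standard diet and by 0.46 and -0.16 at the high-fat diet.

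In macrophages 5 of 9 members passed 2-fold by diet under the flox label, where 13.2% of genes did. Cxcl1 (-1.36, interval -1.56 to -1.16), Cxcl3 (-1.93) and Cxcl10 (-2.70) were lower, Cxcl14 had -2.39 (-7.72 to 0.17) from 1 and 42 UMIs, and Cxcl13 was higher (3.31) through the 1 cell named above. Under the tKO label 1 of 8 passed, Cxcl3 (1.65, interval 0.88 to 2.47), where 4.75% of genes did. Of its 54 UMIs in the tKO high-fat library 33 were in 1 cell, and without the highest cell of each library the ratio was 0.91. With the highest cells of each gene left out, Cxcl10 under tKO went from 0.14 to -1.86 and Cxcl13 from 0.23 to -1.76. Cxcl10 was then more than 2-fold lower by diet under both labels, with -2.92 under flox. The median of all genes was 0.17 under flox and -0.11 under tKO. Cxcl2, the member with the highest macrophage counts, had -0.66 (-0.71 to -0.62) and 0.06 (0.03 to 0.08).

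Between the labels at the standard diet, 4 of 9 members passed in macrophages, where 9.64% of genes did: Cxcl10 (1.64, interval 1.42 to 1.87) and Cxcl13 (1.46) were higher under tKO, and Cxcl3 (-2.0) and Cxcl9 (-3.74, from 1 UMI and 36) lower. Of the 36 Cxcl9 UMIs 24 were in 1 cell, and without the highest cell of each library only a bound of -0.57, under 2-fold, was left. Cxcl10 then had 1.89, Cxcl13 1.20 and Cxcl3 -2.42. At the high-fat diet 3 of 7 passed, where 6.27% of genes did: Cxcl3 (1.59) and Cxcl10 (4.48) were higher and Cxcl13 (-1.62) lower. Without the highest cell of each library Cxcl3 had 1.45 and Cxcl10 2.94, from levels of 36.7 under tKO and 4.81 under flox. For Cxcl13 the cell removed held all UMIs of the flox high-fat library, so only bounds against the floor of 3 counts were left. They were 1.22 between the labels and -1.78 by diet under flox. Cxcl1 differed by -0.97 (-1.08 to -0.87) at the standard and 0.54 (0.32 to 0.76) at the high-fat diet.

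Smooth muscle cells and T cells held few member UMIs. By diet in smooth muscle cells, 1 of 5 members passed under flox, Cxcl2 (-1.28, interval -1.99 to -0.64, from 20 UMIs), where 12.3% of genes did, and 0 of 5 under tKO, where 4.17% of genes did. Between the labels it was 0 of 5 at the standard diet, where 5.39% of genes passed, and 1 of 4, Cxcl2 (1.56, interval 0.90 to 2.29), at the high-fat diet, where 6.29% did. Cxcl12, which was higher in fibroblasts, had 0.42 (-0.03 to 0.84) and 0.17 (-0.11 to 0.45) by diet in smooth muscle cells.

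In T cells 3 of 4 members passed by diet under flox, all lower, Cxcl1 (-2.04), Cxcl2 (-1.94) and Cxcl10 (-1.51), where 8.40% of genes passed, and 0 of 2 under tKO, where 11.5% did. The flox high-fat T cells held 9, 51 and 7 UMIs of these 3 genes, and T cells are not a known source of Cxcl1 or Cxcl2. Between the labels at the standard diet the same 3 genes were lower under tKO (-1.17, -1.29 and -1.37), where 6.93% of genes passed. At the high-fat diet 0 of 1 passed, where 7.75% did. Both sets share the flox standard-diet library, in which 1 T cell held 34.8% of Cxcl2. Without the highest cell of each library Cxcl2 had -0.98 between the labels at the standard diet, under 2-fold, and -2.09 by diet under flox. Other lists moved with them in T cells. By diet under flox, 4 of 10 dissociation-response genes (median -0.74) and 3 of 10 NF-kB genes (median -0.61) were more than 2-fold lower, where the median of all genes was 0.06. Between the labels at the standard diet, 2 of 10 (median -0.43) and 3 of 10 (median -0.61) were lower under tKO, where it was 0.10. The part of these lists, and of RNA from other cell types, in the T-cell ratios was not tested.

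The genes around the chemokines were read for the same libraries. Of the NF-kB early-response list, 2 of 12 genes were more than 2-fold lower by diet in fibroblasts under flox, Tnfaip3, a negative regulator of NF-kB (-1.15), and Ccl2, a monocyte attractant (-1.15), with a median of -0.66, where 8.36% of all genes passed 2-fold in either direction and their median was 0.06. Under tKO 0 of 12 passed, with a median of 0.02, where 6.26% of all genes did. The summed list level in fibroblasts was 4763, 4089, 3106 and 4229. Of the dissociation-response list, immediate-early and heat-shock genes raised by enzyme digestion, 2 of 10 genes were lower under flox, Hspa1a (-1.07) and Dnajb1 (-1.34), with a median of -0.32, and 0 of 10 under tKO. Between the labels at the standard diet, 2 of 10 were lower under tKO, Hspa1a (-1.27) and Hspa1b (-1.02), with a median of -0.22, where 6.11% of all genes passed. Its summed level was 16154, 15213, 15544 and 15993. In macrophages 1 of 11 NF-kB genes was higher by diet under flox, Il6, an inflammatory cytokine (1.34), and 1 lower, Ccl2 (-1.04), with a median of -0.20, where 13.2% of all genes passed, and 0 of 11 passed under tKO, where 4.75% did. At the standard diet 3 of 10 dissociation genes were higher in tKO macrophages, Jun (1.35), Egr1 (1.07) and Ier2 (1.04), with a median of 0.42, where 9.64% of all genes passed, and the summed level of the list there was 9744, 14727, 11762 and 15176. In smooth muscle cells Ccl2 differed most, by -2.85 by diet under flox and by 2.65 between the labels at the high-fat diet. The part of tissue dissociation in the Cxcl1 and Cxcl2 levels was not tested.

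Across single fibroblasts Cxcl1 followed the NF-kB list, with Spearman correlations of 0.50, 0.56, 0.43 and 0.46 over 4341, 1574, 465 and 1127 cells, and less so the dissociation list, with 0.30, 0.29, 0.34 and 0.29. Cxcl12 did not, with -0.07, -0.11, -0.03 and -0.08 for the NF-kB list. In macrophages Cxcl2 had 0.29, 0.45, 0.28 and 0.41 with that list, and Cxcl1 0.10, 0.23, 0.10 and 0.09. The cells of a correlation share their library and the total that both measures were divided by, and the values are a description.

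The members differed strongly in how many cells carried them. In the gated cells, 50% of the UMIs were held by 852 cells for Cxcl16, 770 for Cxcl1, 718 for Cxcl12 and 262 for Cxcl2. The number was 67 for Cxcl10, 23 for Cxcl5, 22 for Cxcl14, 12 for Cxcl13, 9 for Cxcl3 and 1 for Cxcl9. The single highest cell held 50.3% of Cxcl9, 13.4% of Cxcl3, 6.41% of Cxcl10 and 5.61% of Cxcl5, but 0.717% of Cxcl2 and 0.306% of Cxcl1. For the members held by few cells, levels and ratios of a library are those of these cells.

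**Figure D5:**
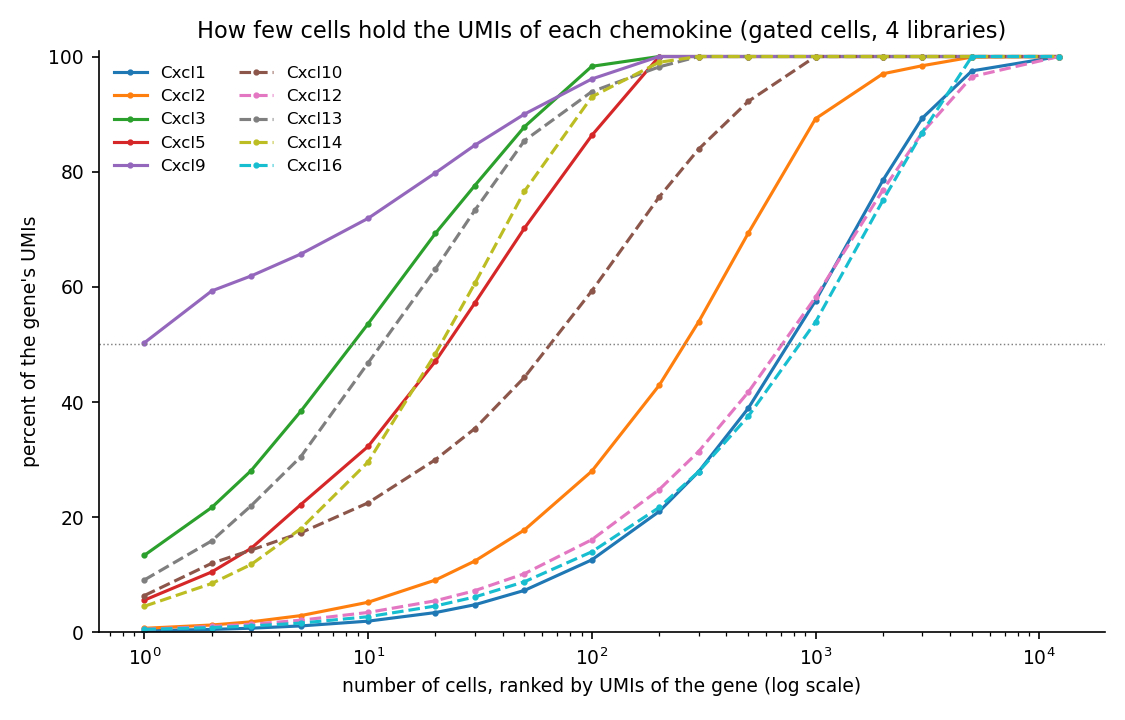
Percent of the UMIs of each chemokine (y axis) held by the highest cells, ranked by UMIs of that gene (x axis, log scale), over all gated cells of the 4 libraries. The dotted line marks 50%, which Cxcl9 passes with 1 cell, Cxcl3 with 9 and Cxcl16 with 852.

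Genes of the most similar pattern were sought over 30 units of cell type and library with at least 20 cells, by Pearson's r of log2 levels with 1 added, among genes with at least 500 UMIs. Cxcl1 was most like Rnase4 (0.933), Klf4 (0.895) and Tmed10 (0.892), and Cxcl12 most like Ntn4 (0.932), Mcc (0.928) and Fmo1 (0.922). Cxcl2 was most like Cd33 (0.926), Clec5a (0.923) and Cxcl3 (0.893), and Cxcl3 most like Il1rn (0.936), Cd300lb (0.920) and Clec4e (0.917), which are genes of myeloid cells. Cxcl9 was most like the endothelial genes Kdr (0.894) and Gpihbp1 (0.879) and like Tcf15 (0.866), and Cxcl16 like Gusb (0.922), Serpinb8 (0.897) and Dab2 (0.896). For Cxcl5 they were Cdh2 (0.927), Prcd (0.898) and Tril (0.869), for Cxcl10 Rap2a (0.801), Ubtd1 (0.784) and Atp6ap2 (0.764), for Cxcl13 Ccl7 (0.893), Scamp5 (0.866) and Rab3il1 (0.838), and for Cxcl14 Aspa (0.902), C2 (0.861) and Dnm1 (0.859). The units of a library share its depth and those of a cell type its cells.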

How the data were processed

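The values the authors deposited were whole UMI counts per gene and cell barcode, not normalized, made from 10x Chromium 3′ v3.1 libraries with Cell Ranger 6.1.2 on mm10. The study's limits on cells were applied here: 200 to 6000 genes and at most 15% mitochondrial UMIs. Cells were gated by the mean scaled level of fixed marker genes (score of at least 0.25, lead of 0.1 over the next type, 3 or more markers, 2000 or more UMIs), which left 1122 cells under the depth limit and 665 unassigned, and 296 gated cells lay near the limits. Doublets were called with Scrublet in scanpy 1.11.5 (306 cells) and kept. Only types with at least 50 cells were used. Levels are UMIs of a gene per 1000000 UMIs, summed over cells, with exact Poisson, Clopper-Pearson and binomial-split intervals (scipy 1.17.1, Python 3.11.15). They were checked only on counts simulated from the Poisson and binomial models that they assume. That check does not cover genes whose UMIs are held by few cells. A bound against 0 UMIs used a floor of 3 counts. The lists, members and markers were chosen with earlier results of these data known. All members, the CXC receptors and other CXC ligands are named, and of the other lists examples of the genes past 2-fold with at least 100 UMIs; the agent injected in the high-fat groups and 1 gene of the interferon list are not reported here by name. Alternatives were other gates, denominators, limits and the removal of doublets, of the highest cell or of a library. The cell types are gates made here, and mesothelial, Schwann, pericyte and other types with too few cells were not analysed here.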

Additional observations from a re-analysis of the deposited data

Results flagged for a closer look

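The results named here had opposite signs in the parallel comparisons. Diet and genotype pairs use the same 4 libraries, so each pair of signs is the same pattern seen from another side, and the difference between them was not tested, because each group was 1 library. Values are log2 ratios, given first for diet under the flox and the tKO label and then for tKO over flox at the standard and the high-fat diet.

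In fibroblasts Cxcl2 had -1.19 and 1.07 by diet and -0.21 and 2.04 between the labels, with the flox high-fat library lowest and the tKO high-fat library highest (64.1 and 264 CPM). Cxcl13 there had -3.24 and 0.44, and -1.48 and 2.20, with 50% of its UMIs in 6, 3, 2 and 2 cells.

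In macrophages Cxcl1 had -1.36 and 0.15 by diet and -0.97 and 0.54 between the labels. Cxcl2 had -0.66 and 0.06, and -0.09 and 0.63. Cxcl3 had -1.93 and 1.65, and -2.0 and 1.59, from 215, 20, 7 and 54 UMIs. Cxcl13 had 1.46 and -1.62 between the labels, and all 128 UMIs of the flox high-fat library were in 1 cell.

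Between the labels, Cxcl1 in smooth muscle cells had -0.37 and 0.67, and Cxcl2 in T cells -1.29 and 0.92.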

How the results depend on the processing

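No paired analysis was possible because each group was 1 library and no result came from a test. A mitochondrial limit of 10% moved no level, ratio or share beyond its counting interval. Of 795 ratio values under alternatives, 706 stayed within the interval and 86 moved. Some that moved also changed sign without the highest cell of each library. Examples are Cxcl14 in fibroblasts between the labels at the high-fat diet (-0.80 to 1.67) and Cxcl10 in macrophages by diet under tKO (0.14 to -1.86). The other 3 values were past 2-fold in opposite directions with and without the highest cell. They were Cxcl9 in fibroblasts between the labels at the standard diet (-1.21), and Cxcl13 in macrophages by diet under flox (-1.78) and between the labels at the high-fat diet (1.22). These Cxcl13 values were bounds against the floor of 3 counts, since no Cxcl13 UMI was left in macrophages of the flox high-fat library. Cxcl3 in fibroblasts had no value without its highest cell, with both libraries at or under 3 UMIs. The cause of the other changes was not tested. The interferon list in macrophages, tried without its highest cell after seeing the data, changed at the high-fat diet from 6 genes higher and 1 lower to 0 and 2 (median 0.74 to -0.36), and by diet under tKO from 3 higher to 0, with 7 lower (median 0.15 to -1.18).

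The mean levels over libraries, in the leading cell type, were 811 for Cxcl1, 7600 for Cxcl2, 89.3 for Cxcl3, 4.13 for Cxcl5, 225 for Cxcl9, 89.4 for Cxcl10, 671 for Cxcl12, 64.7 for Cxcl13, 15.0 for Cxcl14 and 240 for Cxcl16. Without the highest cell they were, in that order, 802, 7307, 1.37, 3.50, 181, 52.7, 544, 12.2, 11.4 and 227. With mitochondrial and ribosomal protein genes left out of the total they were 987 for Cxcl1, 9014 for Cxcl2, 5.01 for Cxcl5, 268 for Cxcl9, 106 for Cxcl10, 805 for Cxcl12, 76.4 for Cxcl13, 18.3 for Cxcl14 and 284 for Cxcl16. As means over cells they were 757 for Cxcl1, 7164 for Cxcl2, 56.3 for Cxcl3, 272 for Cxcl9, 82.4 for Cxcl10, 777 for Cxcl12 and 50.7 for Cxcl13. A stricter gate gave 7828 for Cxcl2 and 10.0 for Cxcl3, and removing doublets 59.8 for Cxcl10. Leaving out each library in turn gave 706 to 925 for Cxcl1, 7282 to 8331 for Cxcl2, 12.9 to 119 for Cxcl3, 2.86 to 4.73 for Cxcl5, 147 to 292 for Cxcl9, 66.1 to 117 for Cxcl10, 601 to 738 for Cxcl12, 35.7 to 81.2 for Cxcl13, 11.1 to 18.5 for Cxcl14 and 232 to 251 for Cxcl16. The low value of Cxcl3 was that without the tKO high-fat library.

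Counts of members past 2-fold moved in 21 of 160 values. The share of all genes past 2-fold under each setting is not given here, and another minimum of UMIs also changes which members are tested. The counts below thus cannot be set against the shares given above. In smooth muscle cells by diet under flox the count of 1 became 0 with doublets removed and 2 without the highest cell, and under tKO the count of 0 became 1 with no upper limit on genes. Between the labels there, 0 became 1 with no upper limit and 2 with genes of at least 10 UMIs at the standard diet, and 1 became 2 as a mean over cells, without the highest cell and with at least 10 UMIs at the high-fat diet. In macrophages by diet under tKO, 1 became 2 with doublets removed, without the highest cell and with at least 10 UMIs, and 0 under the stricter gate, as a mean over cells and with at least 100 UMIs. Between the labels there, 4 became 2 as a mean over cells at the standard diet, and 3 became 1 without the highest cell and 5 with at least 10 UMIs at the high-fat diet. In T cells between the labels, 3 became 5 with at least 10 UMIs at the standard diet, and 0 became 1 with no upper limit, as a mean over cells and with at least 10 UMIs at the high-fat diet.

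Thinning each cell to 1000 UMIs lowered the mean share of cells with a UMI to 34.9% for Cxcl1 in fibroblasts, 79.2% for Cxcl2 and 19.4% for Cxcl16 in macrophages. Without doublets the highest cell held 21.1% of Cxcl10. A setting with no minimum of UMIs per cell, chosen after seeing the data, moved 1 ratio and no level. Few endothelial cells (20 to 62 in a library) and the single library of each group limit what these values show.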
